A study of Mus musculus with 4 samples.

Results

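The matricellular and small leucine-rich matrix proteins, with the fibrillins and fibronectin, were examined as 10 genes in mouse molar mesenchyme at embryonic day 13.5. They were taken by symbol from 22072 genes listed in the deposited tables, and all 10 (Postn, Tnc, Cthrc1, Fn1, Dcn, Lum, Bgn, Ogn, Fbn1 and Fbn2) were found with an accepted estimate in every library. Tissue was cut from frozen sections of embryo heads with a laser, upper (maxillary) and lower (mandibular) molars were kept apart, and RNA sequencing gave 4 libraries. The mutant was Bmp4f/f;Wnt1Cre, in which both alleles of the signalling ligand Bmp4 are floxed and Wnt1-Cre, a driver active in neural crest, deletes them in the crest-derived mesenchyme. The control was Bmp4f/+, with 1 floxed allele and no Cre in its label, so an effect of the Cre transgene cannot be told apart from loss of Bmp4. Both genotypes were on a mixed background. Each of the 4 groups (mutant upper, mutant lower, control upper and control lower molar) had 1 library, and the series description says that samples of 3 pairs, each of a mutant and a control, were pooled. Whether upper and lower molars came from the same embryos is not stated in the labels.

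Matricellular proteins are secreted into the matrix and act mainly on how cells adhere, spread and receive signals, rather than as structural scaffolds. Small leucine-rich proteoglycans bind collagen fibrils, regulate their diameter and spacing, and bind growth factors of the TGF-beta and BMP families. Fibronectin and the fibrillins form the fibrils on which these proteins are deposited, and fibrillin microfibrils hold BMP and TGF-beta complexes in the matrix. In the developing tooth, condensing mesenchyme around the bud is known for tenascin-C, and periostin marks mesenchyme that will form the periodontal tissues.

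Promoter windows of 250 bases before to 50 bases after a transcript start were read for the members from RefSeq on GRCm38.p6. They covered 5 of the 10 genes (Postn, Tnc, Bgn, Ogn and Fbn1) in 7 windows, and none was given for Cthrc1. Shown are the windows whose start lay within 2 bases of the start of the transcript listed for the gene, for Postn, the most abundant member and higher in the mutant, and for Tnc and Bgn, both lower in the mutant. None of these genotype differences passed the test described below. Capitals mark the motifs TATAAA, a core promoter element, CAGAC, a Smad-binding element, and TAATTG, which Msx-type homeodomain proteins bind, each searched on both strands. The motifs do not share bases in these windows. The windows are chr3:54360857-54361156 on the plus strand for Postn, chr4:64046966-64047265 on the minus strand for Tnc and chrX:73483351-73483650 on the plus strand for Bgn.
Postn promoter: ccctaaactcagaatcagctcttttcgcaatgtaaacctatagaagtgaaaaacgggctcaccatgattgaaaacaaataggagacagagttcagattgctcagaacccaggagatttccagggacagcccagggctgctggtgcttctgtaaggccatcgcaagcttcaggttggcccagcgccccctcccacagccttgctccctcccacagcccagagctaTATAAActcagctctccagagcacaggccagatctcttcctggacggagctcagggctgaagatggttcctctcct
Tnc promoter: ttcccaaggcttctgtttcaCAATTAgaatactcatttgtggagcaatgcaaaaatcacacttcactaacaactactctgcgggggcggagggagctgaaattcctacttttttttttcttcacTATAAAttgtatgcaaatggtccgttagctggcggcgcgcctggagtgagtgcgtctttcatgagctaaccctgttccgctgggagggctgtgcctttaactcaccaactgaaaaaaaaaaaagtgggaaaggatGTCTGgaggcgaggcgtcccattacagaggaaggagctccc
Bgn promoter: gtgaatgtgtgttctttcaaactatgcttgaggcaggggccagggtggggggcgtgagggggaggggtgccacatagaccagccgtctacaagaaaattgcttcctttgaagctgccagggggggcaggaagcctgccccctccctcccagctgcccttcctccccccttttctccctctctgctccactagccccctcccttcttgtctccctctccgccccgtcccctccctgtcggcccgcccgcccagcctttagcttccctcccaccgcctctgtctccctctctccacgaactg
In the Postn window TATAAA began 26 bases before the start site, and neither of the other motifs was found. The second Postn window of the table, whose start lies 1842 bases from that of the listed transcript, held CAGAC 191 bases before its start site and TAATTG both 163 bases before and 22 bases after it. The Tnc window held TATAAA 126 bases before the start site, the reverse complement of TAATTG 230 bases before it and that of CAGAC 9 bases after it. A second Tnc window, which overlaps the first, starts 79 bases from the start of the listed transcript. It held TATAAA 205 bases before its start site, CAGAC 39 bases after it and the reverse complement of CAGAC 70 bases before it. The Bgn window held none of the 3 motifs and had 63.7% G and C, against a median of 52.7% over all windows. Of 32851 windows in the same table, 13.6% held TATAAA, 49.6% held CAGAC and 8.0% held TAATTG. These matches describe the letters of the windows and are not evidence of binding.

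The libraries held between 4820000 and 5550000 approximate reads on annotated transcripts, and values are FPKM (fragments scaled to transcript length and to the number of mapped fragments) summed over the transcripts of a gene. Bmp4, the targeted gene, had 4.75 and 4.90 FPKM in upper and lower mutant molars and 24.8 and 27.2 FPKM in the controls. Over both molars Bmp4 differed by -2.21 ± 0.11 on the log2 scale (SE, limma adjusted p = 0.00080), a call kept in 8 of 11 alternatives and lost without either control library and without a filter on low values (range 4.6e-07 to 0.44). All 10 marker genes of molar mesenchyme were expressed, at a summed 770 and 666 FPKM in the mutants and 749 and 675 FPKM in the controls. Among 10 epithelial markers Shh was at 0 in 3 libraries and their sum lay between 21.1 and 23.4 FPKM, and the sums of 8 skeletal muscle markers and of 8 glial and neuronal markers stayed at or below 2.64 FPKM. Differences are mutant minus control or lower minus upper molar on log2(FPKM + 1), which understates changes of weakly expressed genes. Within a molar or a genotype there is no replicate and no p-value. Over all 4 libraries limma fitted genotype and molar as additive terms to the 10502 genes averaging at least 1 FPKM, which all 10 members passed. Its SEs and p-values rest mainly on variance shared across all tested genes (5.77 prior against 1 residual degree of freedom). A gene's own disagreement between molars, or between genotypes, supplies the rest. A fit with 1 library left out has no term for the other factor, so part of that factor's difference enters the fitted difference. The spread between embryos is not measured. In these bulk samples fewer cells of a type and less RNA per cell cannot be told apart.

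The 10 genes differed widely in abundance. Postn was the highest and Ogn the lowest in all 4 libraries, with Cthrc1 next to lowest in each. Lum, Bgn, Dcn, Fn1 and Fbn2 lay between 23.3 and 75.7 FPKM and changed order between libraries, and Tnc and Fbn1 lay between 15.6 and 30.1 FPKM. Summed over the 10 genes, the level was 468 and 602 FPKM in upper and lower mutant molars and 384 and 501 FPKM in upper and lower control molars. Postn made up 41.3% and 46.8% of that sum in upper and lower mutant molars, against 29.4% and 38.8% in the controls.

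**Figure D1:**
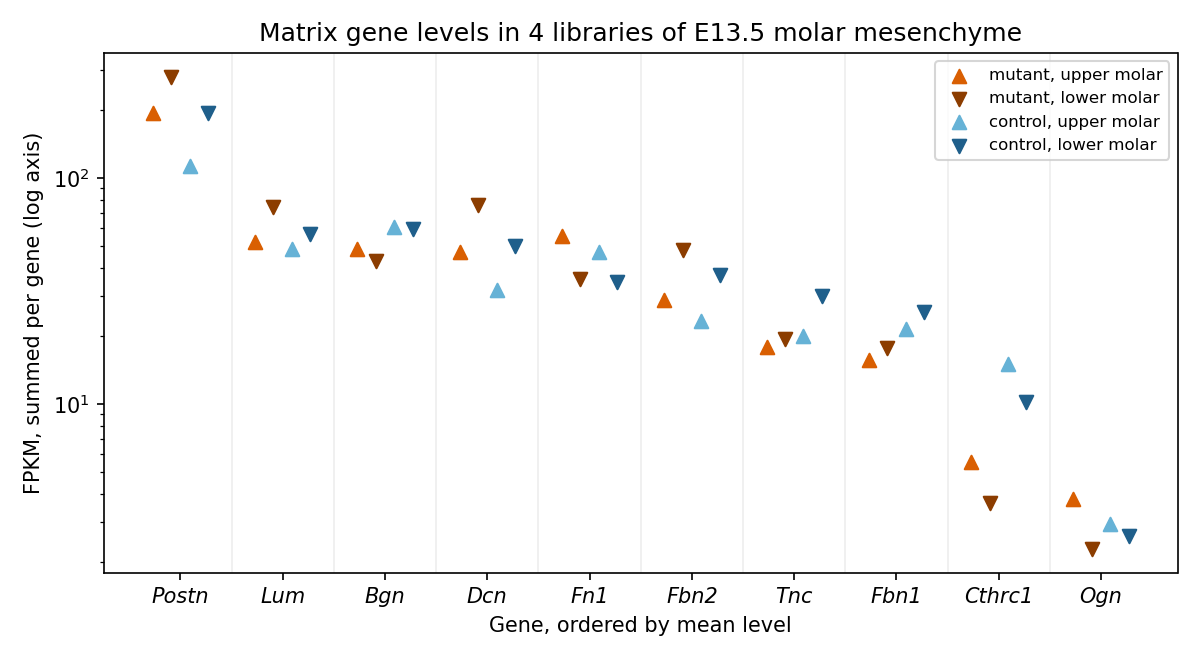
FPKM of each of the 10 genes in each library on a log axis, with genes ordered by mean level, orange for mutant, blue for control, upward triangles for upper and downward triangles for lower molars (1 library each). Postn lies above 112 FPKM in every library, and Cthrc1 is at or below 5.56 FPKM in both mutants against at least 10.2 FPKM in both controls.

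The first comparison set mutant against control, which asks how the matrix programme of the mesenchyme differs when Bmp4 is lost. In the mutant, 5 of the 10 genes (Postn, Dcn, Lum, Fn1 and Fbn2) were higher in both molars, 4 (Cthrc1, Fbn1, Bgn and Tnc) were lower in both, and Ogn differed in direction. The direction was thus the same in both molars for 9 of the 10, as for 59.6% of all tested genes (27.2% higher and 32.4% lower). In 4 genes (Cthrc1, Fbn1, Bgn and Tnc) both mutants lay below both controls, as in 23.1% of all tested genes, and in none did both lie above, as in 18.4%. limma called 1 of the 10, Cthrc1, at an adjusted p under 0.05, against 0.8% of all tested genes, of which 0.343% were called higher and 0.457% lower. An unadjusted limma p under 0.05 was reached by 7 of the 10 against 13.2% of all tested genes, 3 of them higher (6.68%) and 4 lower (6.51%). The median absolute genotype difference was 0.39 over the 10 genes, 0.12 over all tested genes and 0.11 over the 5307 genes averaging at least 5 FPKM. Members and lists were chosen with earlier results of these data known. Comparisons of them with all tested genes, here and below, are therefore descriptions only. The signed medians of the 10 genes were 0.16 in upper and -0.05 in lower molars, beside 0.02 and -0.05 over all tested genes.

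**Figure D2:**
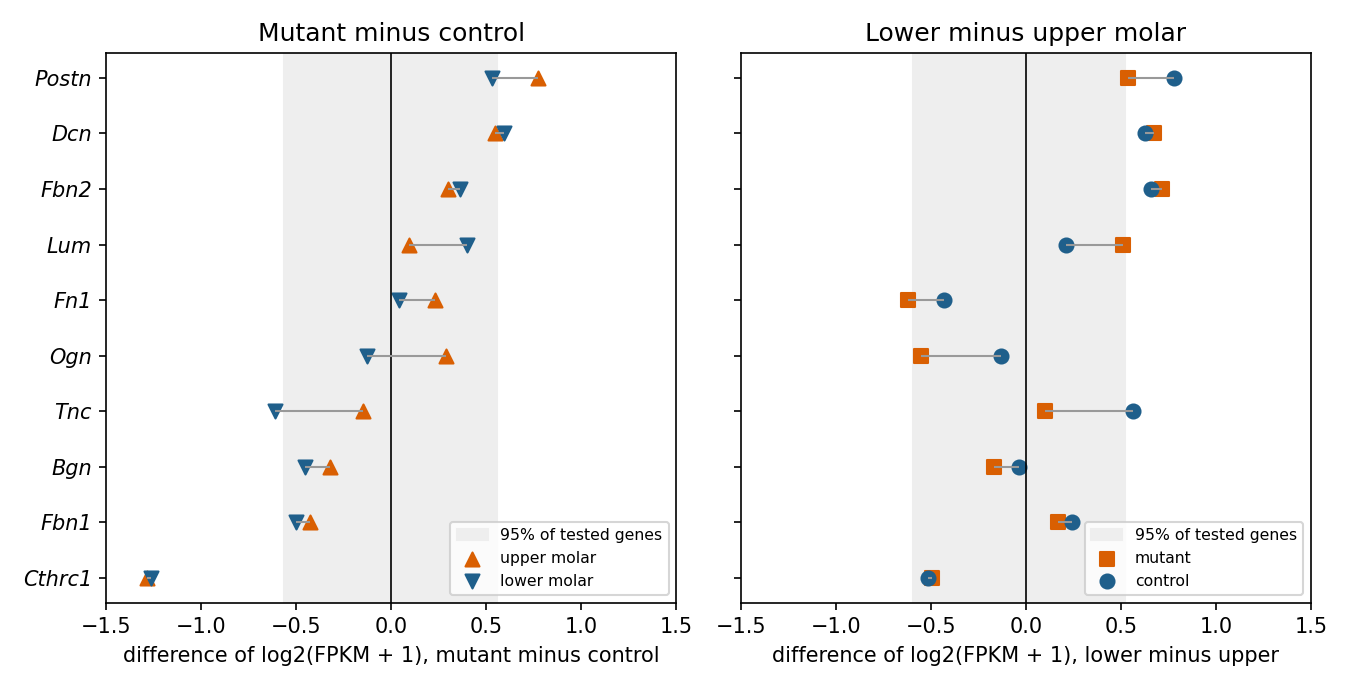
Differences of log2(FPKM + 1) for each gene, mutant minus control in the upper and lower molar on the left, and lower minus upper molar in mutant and control on the right, with a grey band for the central 95% of tested genes (the wider of the paired ranges at each end). Cthrc1 lies at -1.29 and -1.27 in the left panel, Postn at 0.77 and 0.53, and Ogn lies on either side of 0.

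Cthrc1, collagen triple helix repeat containing 1 (chromosome 15, 38908478 to 38918665 on mm9, the build of all gene positions below, 1 transcript of 1164 bases), is a secreted glycoprotein that limits collagen deposition and takes part in non-canonical Wnt signalling. It had 5.56 and 3.65 FPKM in upper and lower mutant molars, against 15.0 and 10.2 FPKM in upper and lower control molars. Both mutant values lay below both control values, and the lowest was in the mutant lower molar. The mutant level was 0.371 times the control level in the upper molar (95% counting interval 0.292 to 0.470) and 0.359 times in the lower molar (0.266 to 0.483), on about 96 and 60 reads in the mutants and 229 and 155 reads in the controls. Cthrc1 fell by 1.28 ± 0.11 over both molars (log2, SE, limma adjusted p = 0.011, lower in 2 of 2 molars), and the difference between its effects in the lower and the upper molar was 0.02. Cthrc1 alone of the 10 genes differed at least 2-fold on the log2(FPKM + 1) scale, and it did so in both molars, as 1.01% of tested genes did in the upper molar (0.59% lower) and 1.1% in the lower molar (0.619% lower). limma did not call Cthrc1 when any single library was left out (log2 differences between -1.53 and -1.02, adjusted p between 0.15 and 0.97), with genotype as the sole term (0.32) or with no filter on low values (0.60), within a range over all alternatives of 6.0e-05 to 0.97.

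Postn, periostin (chromosome 3, 54165029 to 54194963), is a fasciclin-domain protein that binds integrins, collagen and tenascin-C and promotes collagen assembly. It had 193 and 281 FPKM in upper and lower mutant molars, against 113 and 194 FPKM in upper and lower control molars. Each mutant value lay above the control of the same molar, but the mutant upper molar was close to the control lower molar, so the genotypes overlapped across molars. The mutant level was 1.71 times the control level in the upper molar (95% counting interval 1.66 to 1.78) and 1.45 times in the lower molar (1.41 to 1.49). The genotype difference was 0.65 ± 0.11 (log2, SE, limma adjusted p = 0.060, higher in 2 of 2 molars) and did not pass the test. It passed among genes averaging at least 5 FPKM (adjusted p = 0.0067) and without transcripts under 300 bases (0.033), in a range over all alternatives of 0.0067 to 0.97. Leaving out 1 library moved the Postn difference between 0.26 without the control upper and 1.04 without the control lower library (0.38 without the mutant lower and 0.92 without the mutant upper library).

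The deposited tables list 3 Postn transcripts, which differ by a pair of alternative exons of 81 and 84 bases near the 3′ end of the gene, according to the matching GENCODE models. The 3211-base transcript holds the 81-base exon and lacks the 84-base exon, the 3214-base transcript has the reverse, and the 3130-base transcript lacks both. The authors' estimates put 55.7% and 60.8% of Postn FPKM on the 3211-base transcript in upper and lower mutant molars, against 58.3% and 57.7% in upper and lower control molars. The mutant was thus lower in that share in the upper molar and higher in the lower molar. The 3130-base transcript was estimated at no more than 0.0161 FPKM in any library. Dcn was listed with a pair of transcripts as well, and the 1886-base transcript carried 100% and 98.8% of its FPKM in the mutants against 94.2% and 98.3% in the controls. Transcript shares are model estimates from reads that several transcripts have in common, and no error was computed for them here.

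**Figure D3:**
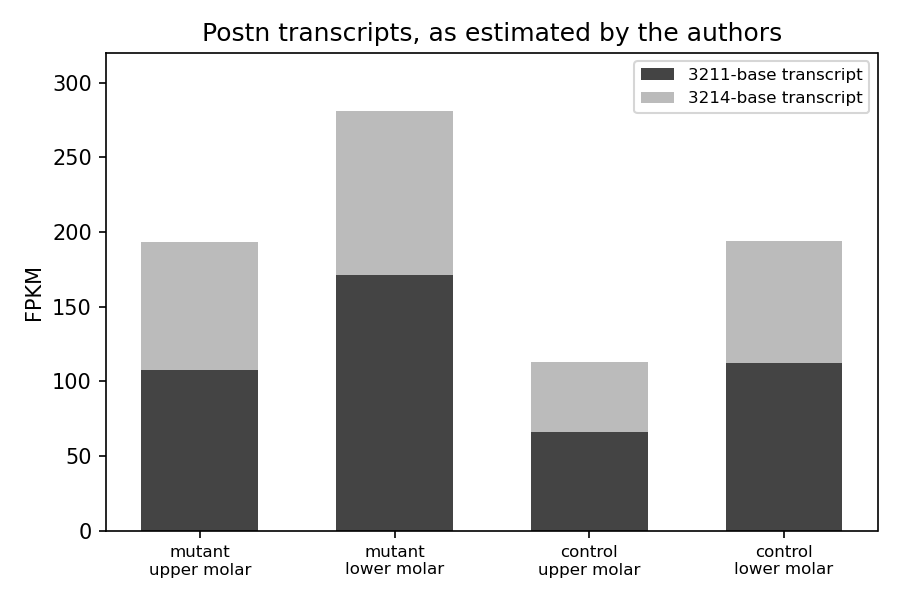
Stacked bars of the authors' estimated FPKM of the 3211-base and the 3214-base Postn transcripts in each library. The 3211-base transcript has 108 and 171 FPKM in upper and lower mutant molars and 65.7 and 112 FPKM in the controls, and it is the larger portion in all 4 bars.

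Tnc, tenascin-C (chromosome 4, 63620819 to 63708049, 1 transcript), is a hexameric glycoprotein that counteracts adhesion to fibronectin. Tnc had 18 and 19.3 FPKM in upper and lower mutant molars, against 20.0 and 30.1 FPKM in upper and lower control molars. The control lower molar stood above the other 3 libraries, and the genotypes did not overlap, which was the case for 41.5% of all tested genes in either direction. The Tnc difference was -0.15 in upper and -0.61 in lower molars, and over both it was -0.38 ± 0.14 (log2, SE, limma adjusted p = 0.32). The effects in the lower and upper molar differed by -0.46, and this difference was not tested. The fitted Tnc difference was -0.10 without the control lower and -0.67 without the control upper library. Those fits have no molar term, so the Tnc molar difference enters them.

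Fn1, fibronectin (chromosome 1, 71632097 to 71699745, 1 transcript), is the glycoprotein whose fibrils cells assemble through integrin alpha5 beta1. Fn1 had 55.3 and 35.6 FPKM in upper and lower mutant molars, against 46.9 and 34.6 FPKM in upper and lower control molars. The upper molars were higher than the lower molars in both genotypes, and the lower molars of mutant and control were nearly equal. The genotype difference was 0.13 ± 0.11 (log2, SE, limma adjusted p = 0.64). Endothelial cells also make fibronectin, and the summed FPKM of 8 endothelial markers was 31.1 and 36.9 in upper and lower mutant molars, against 43.0 and 40.4 in the controls. Their part in the Fn1 values was not tested.

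The values of the small leucine-rich proteoglycans differed in direction, and none passed the test for genotype. Dcn, decorin (chromosome 10, 96942134 to 96980796), carries a single glycosaminoglycan chain and binds collagen and TGF-beta. Dcn had 47.1 and 75.7 FPKM in upper and lower mutant molars, against 31.9 and 49.8 FPKM in upper and lower control molars. As with Postn, each mutant lay above its own molar's control while the mutant upper and control lower molars were close. The mutant levels of Dcn were 1.48 and 1.52 times the control in the upper and lower molar, with counting intervals of 1.35 to 1.61 and 1.41 to 1.63. The difference was 0.57 ± 0.10 (log2, SE, limma adjusted p = 0.079, higher in 2 of 2 molars) and did not pass the test. It passed among genes averaging at least 5 FPKM (adjusted p = 0.023) and without transcripts under 300 bases (0.047), in a range over all alternatives of 0.023 to 0.97. Without the mutant lower or the control upper library the Dcn difference was 0.23 or 0.26, and without the mutant upper or the control lower library 0.91 or 0.88.

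Bgn, biglycan (chromosome X, 70728974 to 70741275, 1 transcript), is the closest relative of decorin, usually carries a pair of chains, and has roles in bone formation. Bgn had 48.5 and 43.1 FPKM in upper and lower mutant molars, against 61.0 and 59.4 FPKM in upper and lower control molars. Both mutants were below both controls, at 0.796 times (counting interval 0.746 to 0.850) and 0.725 times (0.676 to 0.776) the control level. The difference was -0.39 ± 0.10 (log2, SE, limma adjusted p = 0.20). Bgn was thus lower in the mutant where Dcn was higher, and neither difference passed the test.

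Lum, lumican (chromosome 10, 97028135 to 97035337), is a keratan sulfate proteoglycan of collagen fibrils. Lum had 51.9 and 74.5 FPKM in upper and lower mutant molars, against 48.6 and 56.4 FPKM in upper and lower control molars. The mutant lower molar stood above the other 3 libraries, and in upper molars the counting interval of the ratio, 1.07 (0.993 to 1.15), includes equal levels. The difference of Lum was 0.24 ± 0.12 (log2, SE, limma adjusted p = 0.44). Ogn, osteoglycin (chromosome 13, 49703440 to 49719869), had 3.81 and 2.28 FPKM in upper and lower mutant molars, against 2.94 and 2.59 FPKM in upper and lower control molars, on between 82 and 144 reads. Mutant Ogn exceeded control in the upper molar only, and the counting interval of the ratio in the lower molar (0.650 to 1.19) includes equal levels. Over both molars the Ogn difference was 0.08 ± 0.14 (log2, SE, limma adjusted p = 0.86).

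Dcn and Lum lie 47.3 kb apart on chromosome 10 in a cluster of related genes with Kera (keratocan) and Epyc (epiphycan). Kera had 3.15 and 0.578 FPKM in upper and lower mutant molars, against 0.955 and 0.331 FPKM in upper and lower control molars, and Epyc did not pass 0.0944 FPKM. Ogn lies in a second cluster on chromosome 13 with Omd (osteomodulin), Aspn (asporin) and Ecm2. Aspn, which binds collagen and restrains TGF-beta and BMP signals, had 3.06 and 3.65 FPKM in upper and lower mutant molars, against 4.49 and 7.57 FPKM in upper and lower control molars. The Aspn difference was -0.66 ± 0.14 (log2, SE, limma adjusted p = 0.13). Aspn and Ogn, 40.5 kb apart, therefore did not differ in the same way in upper molars, where Aspn was lower and Ogn higher in the mutant.

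The fibrillins, which build microfibrils, also differed in opposite directions, and neither passed the test for genotype. Fbn1 (chromosome 2, 125126330 to 125332174, 1 transcript of 9900 bases) had 15.6 and 17.7 FPKM in upper and lower mutant molars, against 21.4 and 25.5 FPKM in upper and lower control molars. Both mutants were below both controls, and the mutant levels of Fbn1 were 0.730 times (counting interval 0.691 to 0.772) and 0.695 times (0.660 to 0.732) the control levels. The difference of Fbn1 was -0.47 ± 0.10 (log2, SE, limma adjusted p = 0.15). Fbn2, the fibrillin that predominates in embryonic tissue (chromosome 18, 58168277 to 58369580, 1 transcript of 10480 bases), had 28.9 and 48.2 FPKM in upper and lower mutant molars, against 23.3 and 37.4 FPKM in upper and lower control molars. Each mutant was above its own molar's control, at 1.24 times (counting interval 1.18 to 1.30) and 1.29 times (1.24 to 1.34) the control level. The difference of Fbn2 was 0.33 ± 0.10 (log2, SE, limma adjusted p = 0.27).

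Ratios of 2 genes within a library do not depend on how libraries are scaled to each other, and are given as a description. The ratio of Fbn2 to Fbn1 was 1.85 and 2.72 in upper and lower mutant molars, against 1.09 and 1.47 in upper and lower control molars. Dcn relative to Bgn was 0.970 and 1.76 in the mutants, against 0.523 and 0.838 in the controls. Postn relative to Tnc, its binding partner, was 10.8 and 14.6 in the mutants, against 5.63 and 6.45 in the controls. All 3 ratios were higher in the mutant in both molars, by between 1.70 and 2.26 times, a direction set by the choice of a gene that was higher over a gene that was lower in the mutant. Postn relative to Fn1 was 3.50 and 7.91 in the mutants, against 2.40 and 5.62 in the controls, and the genotypes overlapped. Lum relative to Dcn was 1.10 and 0.984 in the mutants, against 1.52 and 1.13 in the controls, and was lower in the mutant in each molar.

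**Figure D4:**
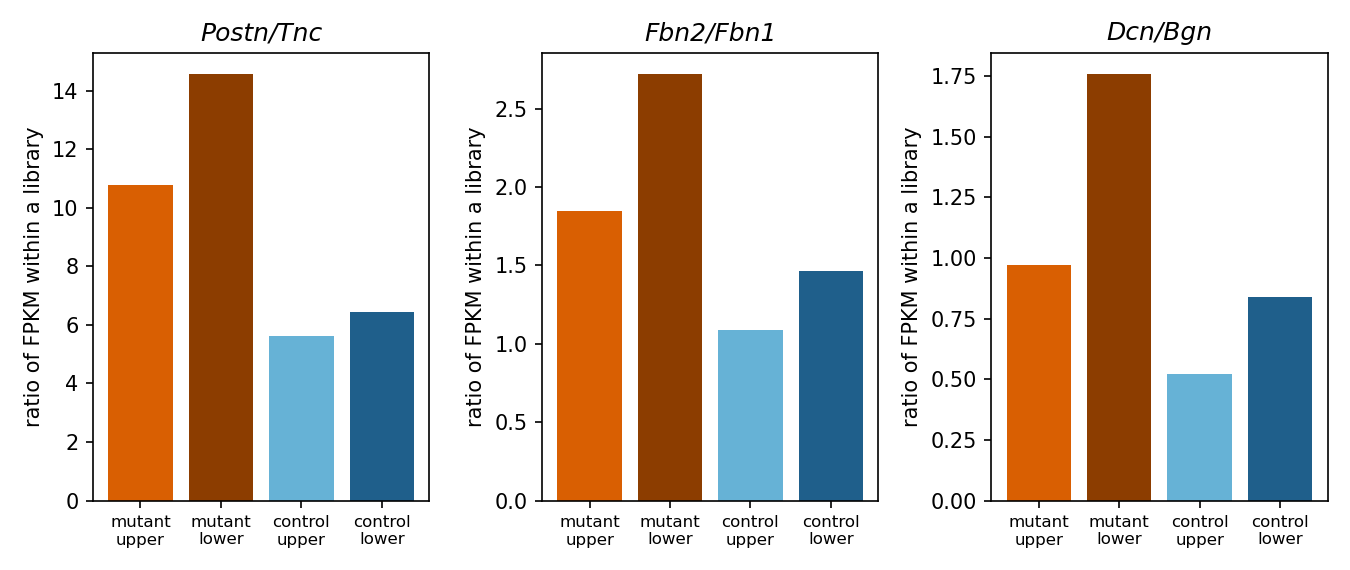
Ratios of FPKM within each library for Postn over Tnc, Fbn2 over Fbn1 and Dcn over Bgn (bars start at 0, 1 library per bar). In each panel both mutant bars stand above both control bars, with Fbn2 over Fbn1 at 1.85 and 2.72 in the mutants and 1.09 and 1.47 in the controls.

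The second comparison set lower against upper molars, which asks how the matrix differs between jaws. All 10 genes had the same sign in both genotypes, as did 55.8% of all tested genes. In the lower molar 6 of the 10 were higher (20.8% of all tested genes) and 4 lower (35%). limma called 1 of the 10, Fbn2, against 0.724% of all tested genes, of which 0.39% were called higher and 0.333% lower in the lower molar. An unadjusted limma p under 0.05 was reached by 7 of the 10 against 10.2% of all tested genes, 5 of them higher (4.11%) and 2 lower (6.12%). Lower and upper molars did not overlap for 6 of the 10 (33.4% of all tested genes), of which Postn, Dcn, Lum and Fbn2 were higher (12.2%) and Fn1 and Ogn lower (21.2%) in the lower molar. No member differed at least 2-fold between molars in either genotype, as 1.28% of tested genes did in the mutant and 0.971% in the control.

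Fbn2 rose in the lower molar by 0.69 ± 0.10 (log2, SE, limma adjusted p = 0.048, higher in 2 of 2 genotypes), with single-library differences of 0.72 in the mutant and 0.66 in the control. limma did not call Fbn2 when any single library was left out (log2 differences between 0.51 and 0.87, adjusted p between 0.52 and 1), without a term for genotype (0.52), without an intensity trend (0.094) or without a filter on low values (0.66), within a range over all alternatives of 0.0081 to 1. Dcn and Postn were higher in the lower molar by similar amounts, 0.65 ± 0.10 and 0.66 ± 0.11 (log2, SE, limma adjusted p = 0.054 and 0.060), without passing the test. Each passed in some alternatives, Dcn in 4 and Postn in 3 of 11, within ranges of 0.012 to 1 and 0.0070 to 1. With 1 library left out the molar difference lay between 0.35 (without the mutant lower library) and 0.95 (without the control lower library) for Dcn, with 0.38 and 0.92 without the control and mutant upper libraries. For Postn it lay between 0.27 (without the control upper library) and 1.05 (without the mutant upper library), with 0.39 and 0.93 without the mutant and control lower libraries. Fits with a library left out have no genotype term, so part of the genotype difference enters them. Within mutant and control the molar difference was 0.67 and 0.63 for Dcn, and 0.54 and 0.78 for Postn. Lum, Tnc and Fbn1 were higher in the lower molar by 0.36, 0.33 and 0.21 (log2), none past the test.

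Fn1 and Cthrc1 were lower in the lower molar, by -0.52 ± 0.11 and -0.51 ± 0.11 (log2, SE, limma adjusted p = 0.13 for each). Both passed among genes averaging at least 5 FPKM (adjusted p = 0.046 and 0.031), where the ranges over all alternatives were 0.046 to 1 and 0.031 to 1. Ogn and Bgn were lower by -0.34 and -0.10. Postn, Dcn, Fbn2 and Lum were therefore the 4 genes that were higher both in the mutant and in the lower molar, and Cthrc1 and Bgn were lower in both respects. The molar difference of Tnc was 0.10 in the mutant and 0.57 in the control.

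**Figure D5:**
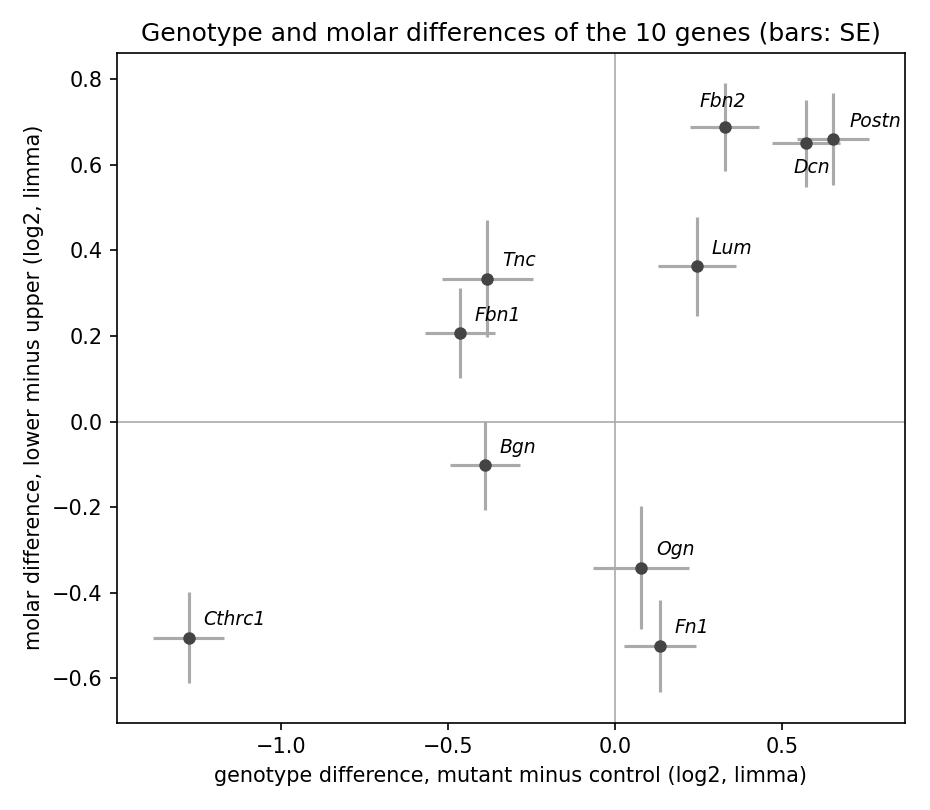
Genotype difference (mutant minus control) on the horizontal axis and molar difference (lower minus upper) on the vertical axis for the 10 genes, as log2 differences from limma with bars of 1 SE. Postn, Dcn and Fbn2 lie at the upper right, with molar differences between 0.65 and 0.69 and genotype differences between 0.33 and 0.65, and Cthrc1 lies apart at the lower left.

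The genes whose profile over the 4 libraries was most like that of a member were listed by root mean square distance of centred log2(FPKM + 1), among genes averaging at least 10 FPKM. For Postn these were Rian at a distance of 0.07, Cdc42ep5 at 0.08 and Dcn at 0.08, of 2767 genes, so that another member was among the 3. For Cthrc1 they were Ptch1, the hedgehog receptor, at 0.13, Id3, an inhibitor of bHLH factors and a known BMP target, at 0.17, and Dlx1as at 0.17, of 2768 genes. Ptch1 had 27.5 and 24.8 FPKM in upper and lower mutant molars, against 76.0 and 49.7 FPKM in upper and lower control molars, and like Cthrc1 it was highest in the control upper molar. For Tnc they were Rps23, Mir675 and Dnajc2, at 0.10, 0.11 and 0.11. A likeness over 4 libraries is a description only.

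Other genes of the same matrix were counted by list. Over all tested genes, limma called 0.8% for genotype and 0.724% for the molar. Of 15 tested matricellular genes outside the 10, limma called 0 higher and 1 lower in the mutant. An unadjusted limma p under 0.05 was reached by 8, against 13.2% of all tested genes. The called gene was Tgfbi, a fasciclin-domain relative of periostin, with 5.34 and 3.88 FPKM in upper and lower mutant molars, against 9.60 and 7.11 FPKM in upper and lower control molars. Tgfbi fell by 0.74 ± 0.11 (log2, SE, limma adjusted p = 0.043), a call kept in 3 of 11 alternatives and lost when any single library was left out (range 0.0053 to 0.97). Tnn, tenascin-N, was at 6.18 and 1.93 FPKM in the mutants and 8.62 and 7.43 FPKM in the controls, lower as Tnc was, without passing the test (limma adjusted p = 0.17). Smoc2, a secreted calcium-binding protein, was at 18.2 and 27.2 FPKM in the mutants and 16.0 and 19.2 FPKM in the controls (limma adjusted p = 0.33). The list median was 0.07 beside -0.02 over all tested genes. Thbs1, thrombospondin-1, rose in the lower molar by 1.0 (log2, limma adjusted p = 0.014), a call kept in 5 of 11 alternatives and lost when any single library was left out (range 0.0012 to 1), and in this list limma called 1 gene higher and 1 lower for the molar. The lower one was Mgp, matrix Gla protein, at -0.87 (log2, limma adjusted p = 0.0497, called in 3 of 10 alternatives, range 0.023 to 1).

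Of the other small leucine-rich proteoglycans 5 of 13 were tested and limma called 0 in either direction. At an unadjusted limma p under 0.05 were 4, against 13.2% of all tested genes. Their median genotype difference was -0.04. Of 22 tested genes of microfibrils and elastic fibres, limma called 0, with 8 at an unadjusted p under 0.05 (13.2% of all tested genes). In both molars 12 were higher in the mutant (27.2% of all tested genes) and 6 lower (32.4%). The same counts, higher and lower, were 7 and 6 of 15 other matricellular genes and 2 and 2 of 5 other small leucine-rich proteoglycans. They were 5 and 6 of 14 receptors, 9 and 5 of 21 chain-building genes and 6 and 3 of 12 matrix-processing genes. Eln, elastin, had 14.3 and 19.7 FPKM in upper and lower mutant molars, against 9.64 and 9.91 FPKM in upper and lower control molars (limma adjusted p = 0.081). Fbln2, fibulin-2, which binds fibrillin and fibronectin, had 16.6 and 25.3 FPKM in the mutants, against 11.6 and 17.8 FPKM in the controls (limma adjusted p = 0.13). The Fbln2 values followed the order of the Fbn2 values over the 4 libraries, highest in the mutant lower molar and lowest in the control upper molar. Postn, Dcn, Lum, Smoc2 and Thbs1 had the same order, and its share over all tested genes was not counted. Ltbp1, which carries latent TGF-beta to microfibrils, had 15.8 and 16.3 FPKM in the mutants, against 10.5 and 14.7 FPKM in the controls (limma adjusted p = 0.35). Efemp1, fibulin-3, had 6.75 and 7.45 FPKM in the mutants, against 5.19 and 4.4 FPKM in the controls (limma adjusted p = 0.19). The list median was 0.08.

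Among 14 tested receptors of these proteins limma called 0 for genotype, with a median of 0.00. An unadjusted limma p under 0.05 was found for 4, against 13.2% of all tested genes. For the molar it called 1, Itga8, an integrin subunit that binds fibronectin and tenascin-C, which fell in the lower molar by 0.75 (log2, limma adjusted p = 0.043, called in 3 of 11 alternatives and in none that left out a library, range 0.0028 to 1). Egfr, which some tenascin-C repeats engage, had 3.78 and 4.99 FPKM in the mutants, against 6.32 and 7.70 FPKM in the controls (limma adjusted p = 0.096). Sdc4, a fibronectin co-receptor, had 11.1 and 13.3 FPKM in the mutants, against 8.03 and 9.38 FPKM in the controls (limma adjusted p = 0.16). The collagen receptor Ddr2 and the integrin subunit Itgb5 were lower in both mutant molars, by -0.24 and -0.22 (log2, limma adjusted p = 0.40 and 0.45). Of 21 tested genes that build the glycosaminoglycan chains of proteoglycans, limma called 1 higher and 0 lower. At an unadjusted limma p under 0.05 were 4 of the 21 (13.2% of all tested genes). The called gene was Csgalnact1, which starts chondroitin sulfate chains on the linker, with 8.69 and 7.84 FPKM in upper and lower mutant molars, against 4.75 and 3.43 FPKM in upper and lower control molars. Csgalnact1 rose by 0.87 ± 0.12 (log2, SE, limma adjusted p = 0.034), a call kept in 3 of 11 alternatives and lost when any single library was left out (range 0.0030 to 0.91). The sulfotransferase Chst2 had 28.5 and 18.9 FPKM in the mutants, against 31.2 and 33.2 FPKM in the controls, and Chst14, which acts on dermatan sulfate, differed by 0.18 (log2, limma adjusted p = 0.33 and 0.60). Of 12 tested matrix-processing genes limma called 0, with 3 at an unadjusted p under 0.05 (13.2% of all tested genes). Plod1 and Lepre1, which hydroxylate collagen, were higher in both mutant molars by 0.33 and 0.18 (log2, limma adjusted p = 0.28 and 0.56). Bmp1, which removes procollagen propeptides, and Pcolce, which enhances that removal, were lower in both by -0.16 and -0.28 (log2, limma adjusted p = 0.58 and 0.36). The median differences were 0.05 for the chain-building and 0.11 for the processing genes.

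Markers of other cell types were summed as lists of 8 genes each, and a few genes carried most of each sum. The osteoblast sum was 46.2 and 41.8 FPKM in upper and lower mutant molars, against 76.7 and 65.7 FPKM in the controls. Runx2, which is also on the molar mesenchyme list, made up most of it, with 39.5 and 31.0 FPKM in the mutants against 62.2 and 48.2 FPKM in the controls. Bglap was at 0 in all libraries. Of the 4 tested osteoblast markers 3 were lower in both mutant molars (32.4% of all tested genes), and limma called 0. The cartilage sum was 8.68 and 8.96 FPKM in the mutants, against 15.0 and 12.5 FPKM in the controls, with Acan and Matn1 at or below 0.0510 FPKM. Of its 2 tested markers Sox9 was called lower, at 3.43 and 1.60 FPKM in the mutants against 8.78 and 5.04 FPKM in the controls (limma adjusted p = 0.015, called in 4 of 10 alternatives and in none that left out a library, range 0.0069 to 0.97). Col2a1, the cartilage collagen, had 4.17 and 6.23 FPKM in the mutants against 4.20 and 5.96 FPKM in the controls, a genotype difference of 0.02. The pericyte and smooth muscle sum was 34.7 and 31.1 FPKM in the mutants, against 51.9 and 48.3 FPKM in the controls. Rgs5 alone was called lower of 4 tested, at 9.03 and 9.48 FPKM in the mutants against 31.8 and 25 FPKM in the controls (limma adjusted p = 0.011, called in 5 of 11 alternatives and in none that left out a library, range 4.6e-05 to 0.60). Pdgfrb was at 20.2 and 16.1 FPKM in the mutants against 14.1 and 15.6 FPKM in the controls. Of the 4 tested markers 2 were higher and 2 lower in both mutant molars (27.2% and 32.4% of all tested genes), with a median of 0.04. Acta2, counted as higher, differed by only 0.003 in the lower molar. Among markers averaging under 1 FPKM, Kcnj8, Abcc9 and Tagln were lower and Myh11 was higher in both mutant molars. The part of these cells in the lower Cthrc1, Bgn and Fbn1 values was not tested.

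The sum of tendon and loose connective tissue markers, cells in which Dcn and Lum are abundant, was 8.31 and 8.21 FPKM in upper and lower mutant molars, against 7.89 and 8.96 FPKM in the controls. The list did not differ in one direction between molars. Dpt, a marker of loose connective tissue, was at 2.07 FPKM in the lower and 0.142 FPKM in the upper molar of the mutant, and at 1.01 FPKM in the lower and 0.0403 FPKM in the upper molar of the control. Col14a1 had 1.32 FPKM in the lower and 0.102 FPKM in the upper molar of the mutant, and 0.711 FPKM in the lower and 0.0695 FPKM in the upper molar of the control. The tendon factor Scx went the other way, with 0.722 FPKM in the lower and 3.97 FPKM in the upper molar of the mutant, and 1.64 FPKM in the lower and 2.13 FPKM in the upper molar of the control. Mkx, another tendon factor, had 3.06 FPKM in the lower and 3.60 FPKM in the upper molar of the mutant, and 4.37 FPKM in the lower and 4.62 FPKM in the upper molar of the control. The part of such cells in the Dcn, Lum and Postn values was not tested. Macrophage markers summed to between 7.15 and 9.07 FPKM and erythroid markers to between 864 and 1025 FPKM.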

How the data were processed

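The submitters' processing notes name TopHat 1.4.1, Bowtie 0.12.7 and mm9. The deposited tables hold FPKM and coverage (signal) for 28107 RefSeq transcript entries, normalised to mapped reads by the authors, per the file headers. The Cufflinks version, strand setting and handling of multiply aligned reads are not given in the sources used here. Captured RNA was turned into cDNA and amplified, per the labels' protocols, so reads are not independent molecules, and intervals cover counting error only. FPKM was summed per gene_id. Coverage times length, divided by the mean of 44.2 bases behind single-read genes, gave approximate reads, from which 95% counting intervals of ratios were made. limma 3.58.1 in R 4.3.3 was fitted to log2(FPKM + 1), pseudocount 1, with genotype and molar as terms, an intensity trend and Benjamini-Hochberg adjustment over 10502 genes at 0.05, two-sided. The fit had 1 residual and 5.77 prior degrees of freedom. It was tested on simulated data. These reads are approximate and were not used for a count test. Members, lists and tests were chosen with earlier results of these data known. Named genes were the 10 members, Bmp4, the genes of each list past the threshold or, averaging at least 5 FPKM, among the 4 largest with the same sign in both molars, and the 3 genes most like Postn, Tnc and Cthrc1. Other genes named (Aspn, Kera, Epyc, Dpt, Col14a1, Scx, Mkx and other markers) were chosen after their values were seen. Symbols written in newer form were matched through synonyms in RefSeq genes of GRCm38.p6. Alternatives were another pseudocount (0.1), no filter (genes listed at 0 in all libraries stayed out), a mean of at least 5 FPKM, rescaling by median ratios, leaving out transcripts under 300 bases, no intensity trend, no term for the other factor, and each library left out in turn. Alternatives for differences between single libraries also included the highest transcript alone.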

Additional observations from a re-analysis of the deposited data

Results flagged for a closer look

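Ogn was higher in the mutant by 0.29 in upper molars and lower by -0.13 in lower molars (differences of log2(FPKM + 1), 1 library per genotype in each molar). The opposite directions drew attention to it among the 10 genes, but whether the molars differ in this was not tested. About 82 to 144 reads lay behind each Ogn value.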

How the results depend on the processing

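Counts of called genes moved with the processing. For genotype limma called 84 genes in the analysis as reported, 0 without a filter on low values (1398 at an unadjusted p under 0.05), 146 averaging at least 5 FPKM, 15 when libraries were scaled by median ratios, 38 with no trend, 7 with no molar term, and between 5 and 18 with 1 library left out. For the molar it called 76, against 0 without a filter (1225 at an unadjusted p under 0.05), 127 averaging at least 5 FPKM, 116 without transcripts under 300 bases, 12 without a term for genotype, and between 0 and 21 with 1 library left out, where the lowest, without the mutant lower library, had 407 genes at an unadjusted p under 0.05. Leaving out a library also drops the term for the other factor, and the lone library of a group is assumed to vary like the others. Part of the other factor's difference then enters the fitted difference.

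Of 109 member values under alternatives for genotype, 93 kept direction and side of the threshold, as did 87 of 109 for the molar. Differences that changed sign did so only with 1 library left out, and none had passed the test as reported. Ogn was left out where genes had to average at least 5 FPKM. With ranges in brackets, for genotype these were Fn1 (-0.18 to 0.45) at -0.18 without the mutant upper and -0.08 without the control lower library, Lum (-0.012 to 0.50) at -0.012 without the mutant lower library, Fbn2 (-0.031 to 0.69) at -0.031 without the mutant lower and -0.00052 without the control upper library, and Ogn (-0.20 to 0.35) at -0.20 without the mutant upper library. For the molar these were Cthrc1 (-1.15 to 0.14) at 0.13 and 0.14 and Bgn (-0.33 to 0.13) at 0.13 and 0.06 without the mutant lower and the control upper library, and Fbn1 (-0.044 to 0.46) at -0.01 and -0.044 without the mutant upper and the control lower library. Within single genotypes the Cthrc1 molar difference was -0.49 in the mutant and -0.52 in the control. Bgn was at -0.17 and -0.04 and Fbn1 at 0.17 and 0.24, in mutant and control. Fn1, Lum and Fbn2 were likewise higher in the mutant within each molar. The fits that changed the signs of these genes had no term for the other factor, so they do not show that the direction is unstable. Of 160 differences between single libraries under alternatives, 8 moved by more than their counting interval and none changed direction. Rescaling by median ratios moved the median of all tested genes by at most 0.07 (log2). No paired analysis was possible because samples of the 3 pairs were pooled, leaving 1 library per group. The molar enters the fit as a term, but the labels do not state whether upper and lower molars share embryos. With 82 to 144 reads for Ogn and 60 to 229 for Cthrc1, depth limits those genes most.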
